A study of Mus musculus with 14 samples.

Results

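The 83 genes described here encode the proteins of the cytosolic ribosome, 33 of the small and 50 of the large subunit, out of 51789 genes in the count table. They were taken by name: the Rps and Rpl symbols, Rpsa, the stalk genes Rplp0, Rplp1 and Rplp2, and Fau, with the GENCODE type protein_coding and at least 100 counts over the 14 libraries. Of 90 symbols that matched, 6 were typed as pseudogenes (such as Rps12l1) and Rpl10l, with 0 counts, fell under the limit. The members just above the limit were Rpl39l, with 151 counts, and Rpl3l, with 280, and the next had 6044. All 83 passed the filter on low counts.

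The libraries came from bulk mouse tumours in 2 hosts, labelled NGS mouse and C57BI/6, each given vehicle or ACSS2i, an inhibitor of the enzyme that makes acetyl-CoA from acetate. There were 3 libraries of NGS vehicle, 3 of NGS ACSS2i, 4 of C57BI6 vehicle and 4 of C57BI6 ACSS2i. The tumour line, the animals' age, the dose and the duration are not given in the sources used here, and no label assigns the Bmal1 status named in the design line to a library. Because the tumour cell type is not given, no defining marker of it could be checked. Nothing says that the libraries of a group came from separate animals, so the p-values measure only the spread between these libraries.

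Each cytosolic ribosome holds about the same number of each of its proteins, so the members of this family are usually made together. Their mRNAs are short and abundant and start with a tract of pyrimidines at the cap, the TOP motif, through which mTOR signalling controls how much they are translated. Cells carry many processed copies of these genes, most of them pseudogenes, whose sequence can be identical to the parent mRNA over long stretches.

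Library depth followed the host, with 2846161 to 4701101 counts in NGS and 17645504 to 20344809 in C57BI6, so depth and host cannot be told apart. The library NGS ACSS2i 2, the shallowest, stood apart: among the 81 members with over 1000 counts, it was the lowest of the 6 NGS libraries for 28 and the highest for 24. NGS vehicle 3 was the highest of the 6 for 26 members and the lowest for 19. Within C57BI6, ACSS2i 4 was the lowest of the 8 libraries for 68 of the 81 members and vehicle 3 the highest for 70. Values are given as CPM, the counts of a gene relative to the total of its library, with that total scaled by TMM, a normalization that sets the bulk of genes equal between libraries. The kit reads the 3' end of each mRNA, so levels are compared between libraries for the same gene and not between genes.

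To show which members can lose reads to a copy, the end of the longest stretch shared between a member's mRNA and its main copy is given here, 5′ to 3′ from the GENCODE M21 transcripts. Capitals mark the last 20 shared bases, and the lower case letters are what follows in that transcript.
Fau: GCCCCAATGCCAATTCCTAAgtcctattgc
Gm9843: GCCCCAATGCCAATTCCTAA
Rpl10: TCTCGCATCAAGTTCGCTTA
Rpl10-ps3: TCTCGCATCAAGTTCGCTTAaaaaaaaaaa
Rpl12: AGACTATCTGATAACCAGTGaatgggcttg
Gm10275: AGACTATCTGATAACCAGTG
Rpl23a: CCAACAAGATTGGGATCATCtaaactgagt
Rpl23a-ps3: CCAACAAGATTGGGATCATC

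The whole 402 bases of Gm9843, a processed pseudogene at chr16:76403251-76403652 (mm10, minus strand), occur without a change in the Fau mRNA, which has 42 bases more after them. Rpl10 on the X chromosome (chrX:74270812-74273135, plus strand) shared 740 bases with its retrogene Rpl10-ps3 at chr9:50344201-50344968, up to the last base of its own mRNA. Rpl12 (chr2:32961559-32965345, plus strand) shared 634 of the 635 bases of the pseudogene Gm10275 at chr10:29698746-29699380. The Rpl12 transcript compared, of 1242 bases, has 453 more after them. For at least 1 Rpl12 transcript, Gm10275 held 100% of the 50-base words in the last 200 bases. Rpl23a (chr11:78180932-78183584, minus strand) shared 352 bases with Rpl23a-ps3 at chr14:34170655-34171122, and its mRNA has 51 more after them. Over the last 200 bases of their mRNAs, 54 of the 83 members had at least 1 other gene holding 50% or more of their 50-base words, 155 such copies in all. For 18 members the copies took more than 5% of the counts of member and copies together, up to 95.3% for Rpl12 and 94.6% for Rpl10.

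The start sites were read in the same way, since the TOP motif is what these mRNAs are known for. These windows hold 15 bases before and 15 from the RefSeq start (GRCm38.p6), with the longest run of C and T in capitals, for the members that fell in NGS tumours, for the stalk genes Rplp0 and Rplp2, and for both starts of Rpl22 and the start of its paralogue.
Rps6 (chr4:86857353-86857382, minus strand): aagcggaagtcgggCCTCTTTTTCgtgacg
Rpl4 (chr9:64173372-64173401, plus strand): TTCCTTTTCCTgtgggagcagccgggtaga
Rpl39 (chrX:37085208-37085237, minus strand): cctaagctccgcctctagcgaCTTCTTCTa
Rpl13 (chr8:123102335-123102364, plus strand): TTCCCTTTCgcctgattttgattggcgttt
Rplp0 (chr5:115559452-115559481, plus strand): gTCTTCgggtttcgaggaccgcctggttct
Rplp2 (chr7:141447636-141447665, plus strand): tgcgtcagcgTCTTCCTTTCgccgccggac
Rpl22, first start (chr4:152324421-152324450, plus strand): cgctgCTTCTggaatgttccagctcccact
Rpl22, second start (chr4:152325711-152325740, plus strand): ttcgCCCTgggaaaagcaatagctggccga
Rpl22l1 (chr3:28805493-28805522, plus strand): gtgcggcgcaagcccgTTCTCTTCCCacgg

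The second start of Rpl22 is the one beside the start of the gene in GENCODE. RefSeq starts were matched for 63 of the 83 members, 75 starts in all. A run of 6 or more C or T on the gene's own strand lay in the 30-base window of 53.3% of these starts, against 29.2% of all 32851 starts. Such a run is a description of the letters in the window and not a tested TOP motif.

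The family as a whole took a similar part of the counts in every group. Its share of all gene counts was 9.1%, 9.39% and 9.52% in NGS vehicle and 9.16%, 9.54% and 9.15% in NGS ACSS2i. It was 8.42%, 8.96%, 9.64% and 8.71% in C57BI6 vehicle, and 8.55%, 9.34%, 8.48% and 7.85% in C57BI6 ACSS2i. The groups overlapped in both treatment comparisons, and the means were 9.34% ± 0.214 (SD, n = 3), 9.28% ± 0.223 (n = 3), 8.93% ± 0.52 (n = 4) and 8.56% ± 0.61 (n = 4) in that order. In bulk tumours a smaller share of cells and less RNA per cell cannot be told apart.

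**Figure D1:**
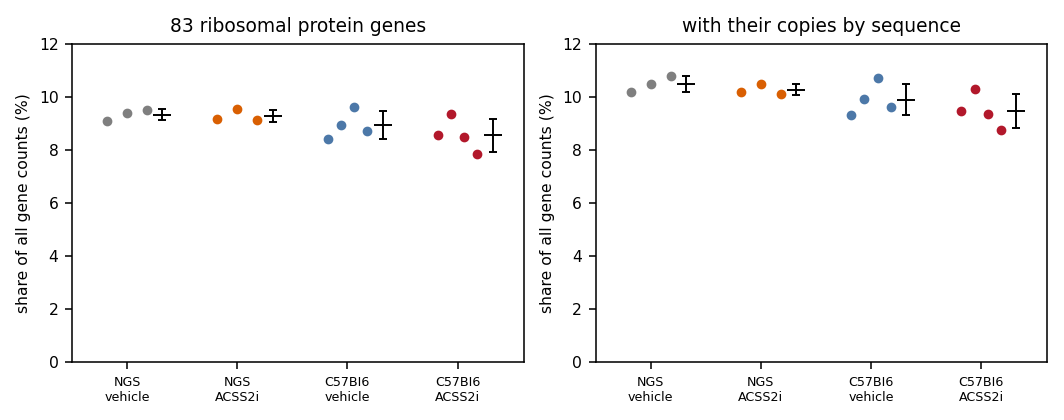
Share of all gene counts, in percent, taken by the 83 ribosomal protein genes (left) and by them with their copies by sequence (right) in each of the 14 libraries (points), with the mean and SD of each group (bars). All libraries lie between 7.85% and 9.64% in the left plot, and the groups of each host overlap.

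In C57BI6 tumours, no member changed with ACSS2i, but most sat slightly lower. The log2 fold change was negative for 77 of 83 members, with a median of -0.12 (quartiles -0.16 and -0.09), the same in the small and in the large subunit, beside a median of -0.01 over all 17294 genes tested. By the edgeR quasi-likelihood test 0 members passed an adjusted p of 0.05, while 0.312% of all genes did. DESeq2 and limma voom each called 1 member lower, Fau, beside 0.395% and 0.526% of all genes with an adjusted p called lower. In 13 members all 4 ACSS2i libraries lay below all 4 vehicle libraries, 15.7% of the members against 4.28% of all genes, and in 0 members did they lie above, against 5.05%. These 13 share the same 8 libraries, so they are not separate pieces of evidence.

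Fau, which encodes the small-subunit protein eS30 fused to a ubiquitin-like domain, had the lowest p. Its level was 382, 354, 412 and 354 CPM in C57BI6 vehicle and 300, 332, 315 and 293 CPM in ACSS2i, without overlap (log2 fold change -0.28 ± 0.08 SE, edgeR adjusted p = 0.268). Most of the counts of Fau and Gm9843 together were under Gm9843 there. In the sum of both the change was smaller, with 1219 to 1415 CPM in vehicle and 1107 to 1364 CPM in ACSS2i, ranges that overlapped. The p53 regulators among the ribosomal proteins were in the same range: Rpl5, which with Rpl11 binds Mdm2 when assembly fails, was at -0.23 ± 0.08 (edgeR adjusted p = 0.391), Rpl11 at -0.09 and Rpl23 at -0.10. Rpl3, a core protein of the peptidyl transferase region, was at -0.21 ± 0.07 (edgeR adjusted p = 0.369), Rps23, a protein of the decoding centre, at -0.25, and Rpl37 at -0.18. Rps6, the substrate of the S6 kinases, was at -0.09, and the stalk genes Rplp0, Rplp1 and Rplp2 lay between -0.08 and -0.01.

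The size of this shift moved with 2 libraries. Without C57BI6 vehicle 3 the median of the members was -0.06 with 19 positive values, and without C57BI6 ACSS2i 4 it was -0.07 with 16. Without both it was -0.05 with 25 positive. With library totals alone as the scale it was -0.06, where the median of all genes was 0.05. The marker lists lay on both sides of 0. Erythroid genes were positive in 0 of 5 tested, with 0 past the test and a median of -0.73. They summed to 752 to 2358 CPM in vehicle and 446 to 1548 CPM in ACSS2i, ranges that overlap. Neutrophil genes were positive in 3 of 6, with 0 past the test and a median of -0.40. Several other lists lay above 0. Of the T cell genes 10 of 10 were positive, with 0 past the test, and their summed level was 15.6 to 30.0 CPM in the vehicle libraries and 44.8 to 90.5 CPM in the ACSS2i libraries. NK cell genes summed to 7.5 to 10.3 CPM and 18.8 to 43.5 CPM, with 1 of 7 past the test, and no gene of either list was at 0 throughout. Macrophage and monocyte genes were positive in 10 of 10, with 1 past the test, and summed to 2489 to 3688 CPM in vehicle and 3071 to 3912 CPM in ACSS2i. Proliferation genes were positive in 14 of 14, with 0 past the test, and summed to 1237 to 1522 CPM and 1421 to 1575 CPM. Skeletal muscle genes were positive in 12 of 12 and adipocyte genes in 7 of 7, with 0 past the test in either list. The muscle sums were 4.16 to 1104 CPM in vehicle and 5.25 to 3229 CPM in ACSS2i. The adipocyte sums were 15.9 to 189 CPM and 94.1 to 385 CPM, and both lists overlapped between the groups. The part of these cells and genes in the members' values was not tested.

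In NGS tumours the members lay on both sides of 0. With ACSS2i 4 fell and 0 rose. Of the 83, 28 were positive and 55 negative, the 4 among them (median -0.12, quartiles -0.22 and 0.07, beside -0.01 for all genes). By the edgeR test the 4 were 4.82% of the members, against 2.69% of all genes called in either direction and 1.38% called lower. All 3 ACSS2i libraries lay below all 3 vehicle libraries in 20 members (24.1%), against 10.3% of all genes, and above them in 6 (7.23%), against 8.48%.

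Rps6, whose protein is phosphorylated downstream of mTOR, was at 856, 930 and 1310 CPM in NGS vehicle and at 703, 569 and 717 CPM in NGS ACSS2i. The groups did not overlap, and Rps6 fell by 0.64 ± 0.14 on the log2 scale (edgeR adjusted p = 0.0323). In C57BI6 tumours it was at 952 ± 84.0 CPM (SD, n = 4) in vehicle and 892 ± 57.4 CPM (n = 4) in ACSS2i.

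Rpl39, a small protein lining the exit tunnel, was at 1107, 1008 and 924 CPM in NGS vehicle and at 709, 296 and 595 CPM in NGS ACSS2i. It fell by 0.93 ± 0.22 (edgeR adjusted p = 0.0382). NGS ACSS2i 2 was by far its lowest library, and without it Rpl39 still passed, at -0.62 (edgeR adjusted p = 0.0244). Its call was lost under 15 of the alternative settings, among them the omission of NGS vehicle 1, 2 or 3 and of NGS ACSS2i 3.

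Rpl4, a large-subunit protein that reaches into the exit tunnel, was at 717, 778 and 1104 CPM in vehicle and 614, 465 and 570 CPM in ACSS2i, and fell by 0.66 ± 0.15 (edgeR adjusted p = 0.034). Rpl13 was at 1205, 1302 and 1490 CPM in vehicle and 1029, 1072 and 1049 CPM in ACSS2i and fell by 0.34 ± 0.09 (edgeR adjusted p = 0.0499). Neither gene's groups overlapped. Rps24, a small-subunit protein mutated in Diamond-Blackfan anaemia, came next at -0.65 ± 0.17 and did not pass (edgeR adjusted p = 0.0543).

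On the other side, 3 of 3 stalk genes, which form the flexible arm that recruits elongation factors, were positive and 0 passed. Rplp2 went from 1688, 1984 and 2250 CPM in vehicle to 2423, 3071 and 2577 CPM in ACSS2i, with no overlap (0.45 ± 0.15, edgeR adjusted p = 0.115). Rps14, a protein of the small-subunit platform, was at 0.37 ± 0.14 (edgeR adjusted p = 0.139), Rpl8 at 0.30 and Rpl27a at 0.25. Rpsa, which also acts as a laminin receptor, was at 0.37 with an edgeR adjusted p of 0.286.

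**Figure D2:**
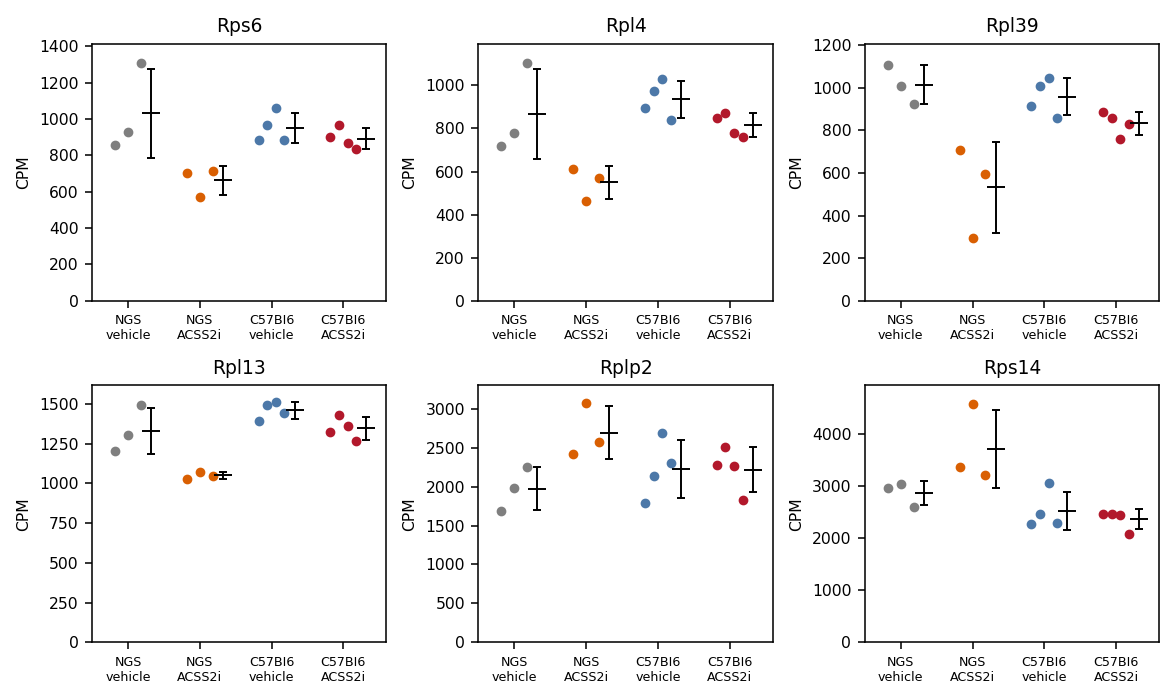
CPM of 6 members in each library (points) with the mean and SD of each group (bars). The 3 NGS ACSS2i libraries lie below the 3 NGS vehicle libraries for Rps6, Rpl4, Rpl39 and Rpl13 and above them for Rplp2 and Rps14, while the C57BI6 groups overlap for all 6.

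These 4 calls lay close to the threshold. Among the alternative settings, the call of Rpl13 was lost under 22, those of Rpl4 and Rpl39 under 15 each and that of Rps6 under 13. DESeq2 called 11 members lower, beside 5.41% of all genes, and 1, Rplp2, higher, beside 5.6%. Limma voom called 0 lower, beside 0.0636% of all genes. Leaving out single libraries gave 11 lower without NGS ACSS2i 1 (5.49% of all genes). It gave 4 without NGS vehicle 1, but not the same 4, since Rpl39 was lost there and another member passed. Without C57BI6 vehicle 4 it gave 3. Beside these counts, 93 of 17811 and 191 of 17235 genes were called lower, in that order. Without NGS ACSS2i 2 or C57BI6 vehicle 3 it was 1, beside 49 of 17936 and 127 of 17251 genes. It was 0 without NGS vehicle 2 or 3, NGS ACSS2i 3, C57BI6 vehicle 1 or 2, or any 1 C57BI6 ACSS2i library. In the fits with 0 members, 78 to 153 genes were called lower, against 238 of 17294 in the main fit. NGS vehicle 3 was the highest of the 6 NGS libraries for Rps6, Rpl4 and Rpl13. Fibroblast genes fell in 2 of 7 (median -0.42), with summed levels of 8549 to 9276 CPM in NGS vehicle and 6687 to 7380 CPM in NGS ACSS2i, without overlap. Neutrophil genes fell in 1 of 6, with 48.5 to 229 CPM and 76.0 to 174 CPM. Macrophage and monocyte genes rose in 1 of 10, with 2157 to 3274 CPM and 3126 to 3425 CPM. The 12 skeletal muscle marker genes had summed levels of 336 to 7150 CPM in NGS vehicle and 14.5 to 701 CPM in NGS ACSS2i, ranges that overlap, with 0 of 12 past the test and 0 at 0 throughout. Their part in the members' values was not tested.

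The difference between the treatment effects of the 2 hosts was then tested for each member. By the edgeR test of the difference 0 of 83 members passed, 0.0173% of all genes did, and limma voom called 0 members. DESeq2 called 1 lower, Fau, beside 1.2% of all genes. The members called in NGS had the following differences, C57BI6 minus NGS: Rps6 0.54 ± 0.19 (edgeR adjusted p = 0.26), Rpl39 0.72 ± 0.28 (0.297), Rpl4 0.46 ± 0.20 (0.329) and Rpl13 0.23 ± 0.12 (0.394). Fau was at -0.40 ± 0.13 (edgeR adjusted p = 0.232), being positive in NGS, at 0.13, and negative in C57BI6. Under the alternative settings this difference ran from -0.47 to -0.13. Summed with Gm9843, Fau averaged 1208 ± 54.5 CPM (SD) in NGS vehicle and 1239 ± 62.7 CPM in NGS ACSS2i. In C57BI6 the sum averaged 1308 ± 81.4 CPM in vehicle and 1229 ± 106 CPM in ACSS2i.

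**Figure D3:**
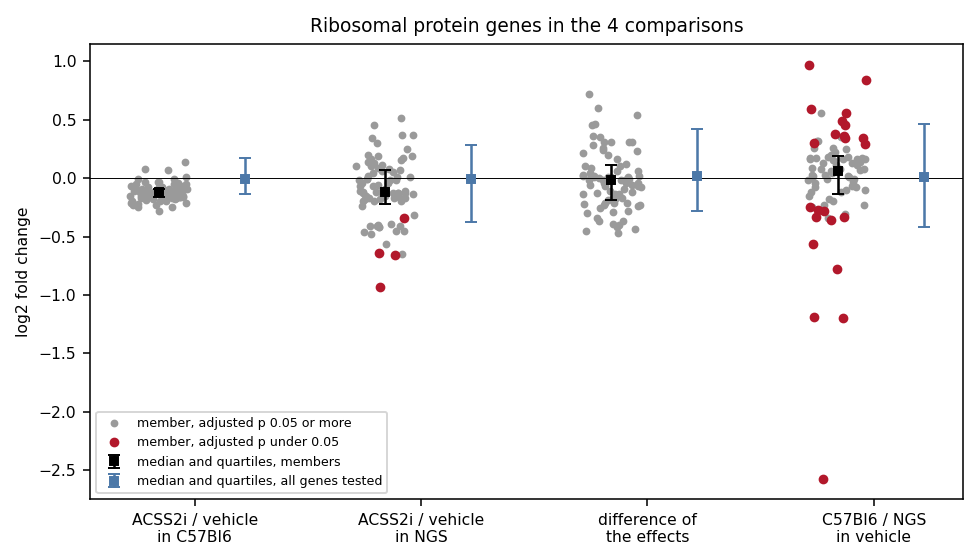
Log2 fold change of the members in each comparison (points; red where the edgeR adjusted p is under 0.05), with the median and quartiles of the 83 members (black) and of all 17294 genes tested (blue); Rpl3l and Rpl39l are left out of the points. The members cluster just below 0 in C57BI6, spread to both sides in NGS, and run from -2.57 to 0.97 between the hosts.

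Between the hosts, in vehicle, 24 members differed, a share near that of all genes. By the edgeR test 12 were higher in C57BI6 and 12 lower, 28.9% of the members against 32.8% of all genes, of which 18.8% were higher and 14% lower. The groups did not overlap for 18 members that were higher, 21.7% against 23.5% of all genes, and for 12 that were lower, 14.5% against 17.1%. The median of the members was 0.06, with 50 positive, beside 0.01 for all genes. With library totals alone as the scale, the median of all genes moved by over 0.1, to -0.14, and the split of the calls became 6 higher and 21 lower, beside 14.4% and 20.9% of all genes. Without NGS vehicle 1 or NGS vehicle 2, 7 members were lower, beside 10.6% and 10.7% of all genes, and without NGS vehicle 3, 18 were higher, beside 17.3%.

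The 12 higher members came from both subunits. Rpl21, a large-subunit protein, was at 412, 440 and 599 CPM in NGS vehicle and at 886, 954, 1003 and 943 CPM in C57BI6 vehicle (0.97 ± 0.13, edgeR adjusted p = 4.12e-05). Rps9, a protein near the mRNA entry, was at 900, 924 and 1309 CPM and at 1711, 1881, 2113 and 1766 CPM (0.84 ± 0.14, edgeR adjusted p = 3.76e-04). Neither pair of groups overlapped.

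Rps26, which contacts the mRNA upstream of the start codon, was higher by 0.59, Rps12 by 0.56, Rps21 by 0.49 and Rpl37a by 0.45. The remaining 6, Rpl23a, Rpl14, Rpl37, Rpl5, Rpl29 and Rpl3, were higher by 0.29 to 0.38.

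**Figure D4:**
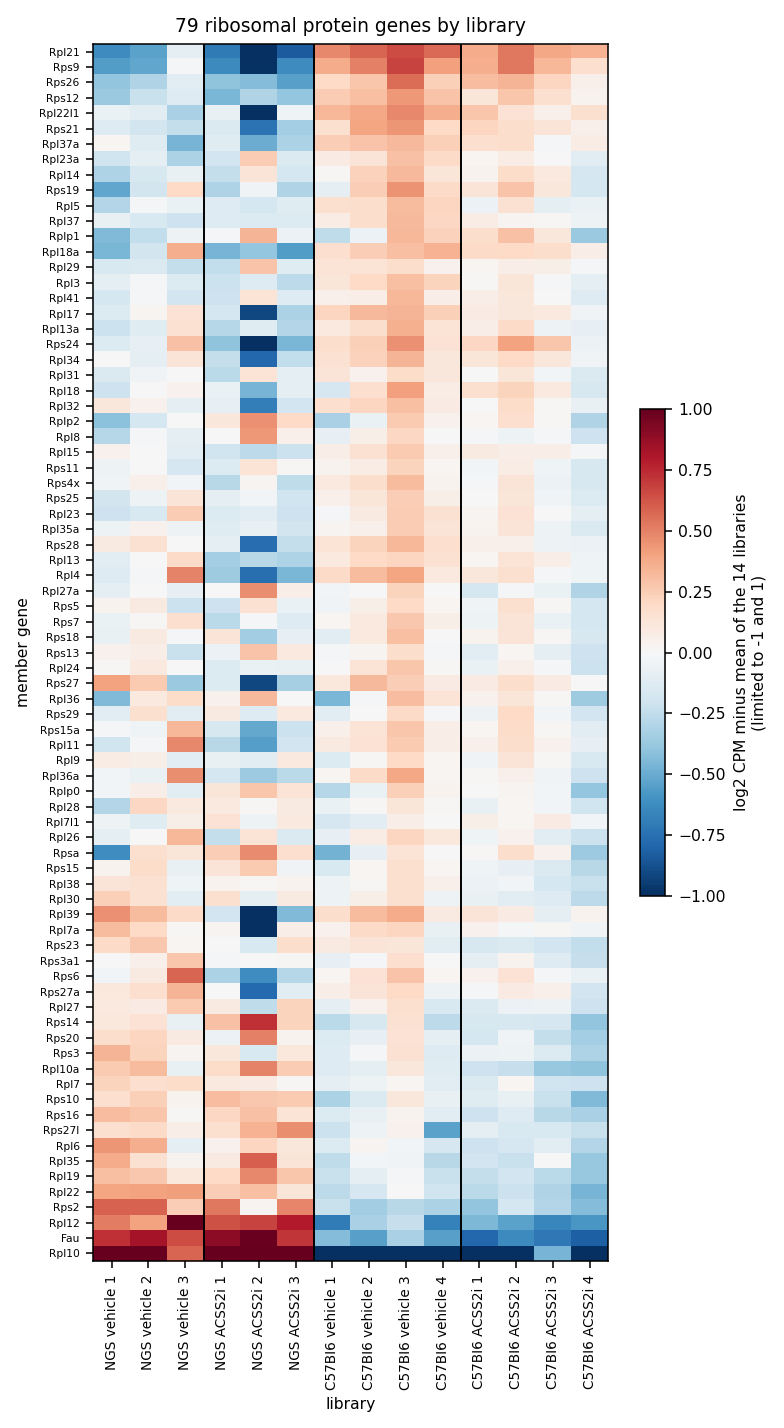
Log2 CPM of 79 of the 81 members with over 1000 counts, each minus its mean over the 14 libraries, ordered from the highest to the lowest log2 fold change of C57BI6 against NGS in vehicle (red, above the mean; blue, below; limited to -1 and 1). Rpl21 and Rps9 stand at the top, Rpl12, Fau and Rpl10 at the bottom, and the NGS ACSS2i 2 column is at the blue limit for Rpl22l1, Rpl39, Rpl21, Rps24 and Rpl7a.

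Apart from Rpl39l, which had few counts, the lower members with the largest differences shared their sequence with a copy. Fau was at 856, 920 and 812 CPM in NGS vehicle and at 382, 354, 412 and 354 CPM in C57BI6 vehicle (-1.20 ± 0.09, edgeR adjusted p = 1.08e-07). Its pseudogene Gm9843 went the other way, from 319, 358 and 384 CPM to 833, 950, 1025 and 959 CPM (1.41 ± 0.11, edgeR adjusted p = 1.47e-07). The sum of both was 1208 ± 54.5 CPM (SD, n = 3) in NGS and 1308 ± 81.4 CPM (n = 4) in C57BI6, a difference of 0.11 ± 0.08 (edgeR adjusted p = 0.321). Fau held 67.9 to 72.8% of the counts of the pair in NGS vehicle and 26.9 to 31.5% in C57BI6 vehicle, and 73.5 to 80.3% and 24.7 to 26.6% in the ACSS2i groups.

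Rpl10, a large-subunit protein added late in assembly, was at 281, 313 and 143 CPM in NGS vehicle and at 35.5, 40.7, 44.4 and 45.3 CPM in C57BI6 vehicle. It was lower by the fit, at -2.57 ± 0.28 (edgeR adjusted p = 6.33e-06). Most of the counts of Rpl10 and its copies were under the retrogene Rpl10-ps3. The mean of Rpl10-ps3 was 1429 ± 65.3 CPM in NGS vehicle and 1518 ± 89.8 CPM in C57BI6 vehicle. With all copies summed, the difference was -0.10 ± 0.07 (edgeR adjusted p = 0.277).

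Rpl12, part of the base of the stalk, showed the same with Gm10275: -1.19 ± 0.16 alone (edgeR adjusted p = 5.84e-05) and 0.17 ± 0.07 summed (edgeR adjusted p = 0.102). For Rpl23a, which sits at the tunnel exit, the copy was counted almost only in NGS. Rpl23a-ps3 was at 900, 954 and 834 CPM in NGS vehicle and at 0, 0, 14.8 and 0 CPM in C57BI6 vehicle. Rpl23a alone was higher in C57BI6 by 0.38 ± 0.11 (edgeR adjusted p = 0.0128), and with its copies it was at -0.20 ± 0.09 (edgeR adjusted p = 0.0974), the reverse sign. Such reads cannot be assigned to member or copy from these counts, and the rule the authors' counting used to split them is not given in the sources used here.

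**Figure D5:**
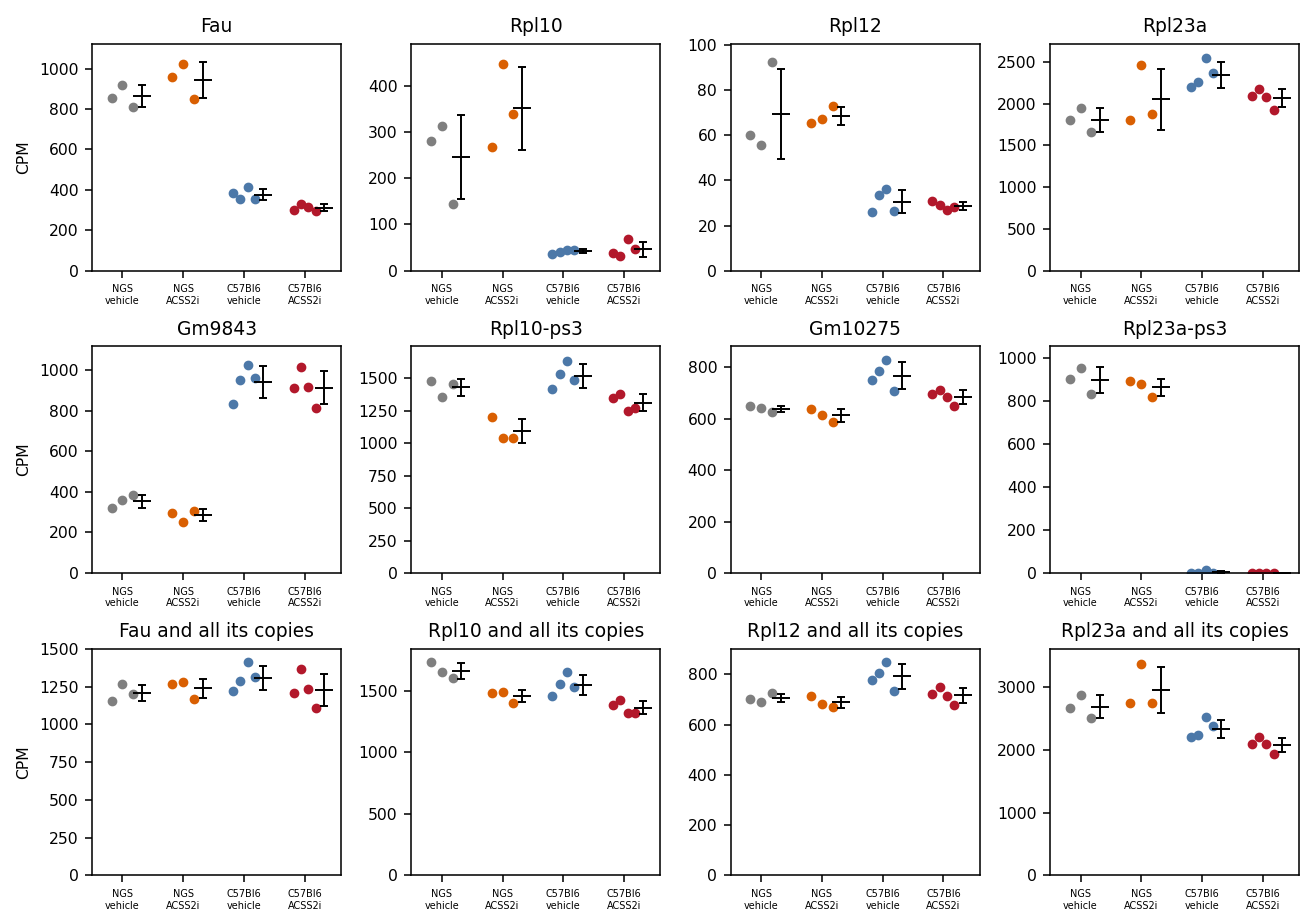
CPM of Fau, Rpl10, Rpl12 and Rpl23a (top row), of the main copy of each (middle row) and of the member summed with all its copies (bottom row) in each library (points), with the mean and SD of each group (bars). Fau and Gm9843 change places between the hosts, while their sum differs by 0.11 on the log2 scale.

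With every member summed with its copies, 19 members differed between the hosts, 10 higher and 9 lower, 22.9% against 32.7% of all genes. Of the 24 called alone, 17 were called again, all in the same direction. The 7 that were not, Fau, Rpl10, Rpl12, Rpl23a, Rpl5, Rpl6 and Rps2, all had more than 5% of their counts in copies, and 2 others, Rpl10a and Rpl9, were called only in the sums. Rps2, a small-subunit protein at the mRNA entry, went from -0.78 to -0.38 (edgeR adjusted p = 0.0759 when summed) and Rpl5 from 0.34 to 0.09. Rpl35 and its copy Gm2000 were at -0.34 and 0.40, neither past the test, and the sum at 0.14.

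Rpl22, for which the search found no copy, was lower too. It was at 958, 964 and 971 CPM in NGS vehicle and at 608, 648, 725 and 633 CPM in C57BI6 vehicle, without overlap (-0.56 ± 0.09, edgeR adjusted p = 1.56e-04). Its product is known to bind the RNA of its paralogue Rpl22l1 and to hold it down. Rpl22l1 was at 189, 183 and 158 CPM and at 250, 259, 277 and 255 CPM (0.56 ± 0.24) and did not pass (edgeR adjusted p = 0.0885), although the groups did not overlap.

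As a share of the counts of both, Rpl22l1 took 14 to 16.5% in NGS vehicle and 27.6 to 29.1% in C57BI6 vehicle. In the ACSS2i groups it took 6.94 to 19.5% and 25.7 to 29.6%, the lowest being NGS ACSS2i 2. Rpl19, Rpl7 and Rps16 were lower in C57BI6 vehicle by smaller amounts, from -0.36 to -0.25. The groups overlapped for Rps16. Its call was lost under 6 of the alternative settings, that of Rpl7 under 3 and that of Rpl19 under 0.

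Of the other paralogues, Rpl39l and Rpl3l had few counts. Rpl39l, known from testis, had 0 to 22 counts in a library, and its lower value in C57BI6 vehicle (-1.84 ± 0.65, edgeR adjusted p = 0.0417) rests on 6 to 19 counts in the NGS vehicle libraries. Rpl3l, the muscle form of Rpl3, had 75 counts in NGS vehicle 2 and 108 in C57BI6 ACSS2i 3 and 43 or fewer elsewhere. Its level followed the summed level of 12 skeletal muscle genes over the 14 libraries (Spearman's rho = 0.877, a description over libraries that differ in depth and host). Rps27l took 19.3 to 27.8% of the counts of Rps27 and Rps27l in NGS vehicle, 25.8 to 40.5% in NGS ACSS2i, and 15.6 to 19.9% in the C57BI6 libraries. Of the counts of Rps27 and its only copy found, Rps27rt, 35.3% were under Rps27rt. Rpl7l1 took 6.56 to 9.49% of the counts of Rpl7 and Rpl7l1 over the 14 libraries.

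Between the hosts, cell type markers differed as well. T cell genes were higher in C57BI6 vehicle in 8 of 10 and NK cell genes in 5 of 7, and keratinocyte genes lower in 7 of 8 tested, with summed levels of 43.5 to 1274 CPM in NGS vehicle and 14.1 to 17.8 CPM in C57BI6 vehicle. Fibroblast genes were lower in 5 of 7 and higher in 1, with summed levels of 8549 to 9276 CPM in NGS vehicle and 6081 to 7677 CPM in C57BI6 vehicle, without overlap. Neutrophil genes were higher in 4 of 6, with overlapping sums of 48.5 to 229 CPM in NGS vehicle and 142 to 186 CPM in C57BI6 vehicle. Proliferation genes were lower in 3 of 14 and higher in 1. Macrophage and monocyte genes were lower in 2 of 10 and skeletal muscle genes in 2 of 12, with 0 higher in either list. Their part in the members' values was not tested.

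Other genes of the pathway, from lists drawn up by function, were set beside the members. Other mRNAs known to carry a TOP motif, such as Eef1a1, the elongation factor, were negative in C57BI6 with ACSS2i in 24 of 24 tested, with 0 called and a median of -0.16. In NGS 3 of the 24 fell, Eif2s3x (-1.08 ± 0.20, edgeR adjusted p = 0.0151), Vim (-0.78 ± 0.17, 0.027) and Eif4a2 (-0.69 ± 0.15, 0.0281), with a median of -0.24 and 4 positive. Eef1a1 was at -0.27 in C57BI6 and -0.43 in NGS and passed in neither (edgeR adjusted p = 0.386 and 0.0536).

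The 8 TOP transcripts that host small nucleolar RNAs were all negative in both hosts with ACSS2i, with medians of -0.20 in C57BI6 and -0.51 in NGS. Only Snhg6 passed, in NGS, where it fell by 2.07 ± 0.43 (edgeR adjusted p = 0.0238). In vehicle all 8 were positive in C57BI6 against NGS, with a median of 0.60, and 3 passed, among them Snhg1 at 0.66 and Zfas1 at 0.82.

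The genes that build ribosomes were examined in the same way. Of 65 assembly factors 0 were called in C57BI6 (12 positive, median -0.08), and in NGS Wdr12 (0.54) and Nop16 (0.44) rose and Nmd3, an export adaptor of the large subunit, fell by 0.72 (33 positive, median 0.02). Of 16 RNA polymerase I genes, 1 was called under the inhibitor, Taf1b, which fell by 0.93 in NGS (edgeR adjusted p = 0.0432). The 78 mitochondrial ribosomal protein genes had 0 called in either host under the inhibitor, with medians of -0.03 in C57BI6 and 0.03 in NGS, and 7 higher and 7 lower between the hosts. A list of other short mRNAs, most of them encoding small subunits of the mitochondrial respiratory complexes, lay close to the members. Its median was -0.11 in C57BI6, with 2 of 21 positive and 0 called, and -0.10 in NGS, with 10 of 21 positive and 2 called lower. Of 12 p53 pathway genes and 17 mTOR and Myc genes tested, 0 were called under the inhibitor in either host.

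Rack1 and Rpl36al, ribosomal proteins whose symbols fall outside the naming rule, did not pass the edgeR test under the inhibitor in either host. Rack1, a scaffold on the small subunit, was lower in C57BI6 vehicle, at 830 ± 66.0 CPM against 1229 ± 184 CPM in NGS vehicle (-0.57 ± 0.11, edgeR adjusted p = 9.84e-04).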

How the data were processed

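RNA of bulk mouse tumours was measured with a Lexogen QuantSeq kit, which sequences the 3' end of mRNA, per the labels' protocols. The authors deposited a table of whole-number counts per gene for 14 libraries, not normalized. The submitters' processing notes name the build mm10 and the tools DESeq2 and RSEM 1.2.3 without saying what each was used for. Rounding of estimated counts, read length and strand setting are not given in the sources used here. All columns matched a label, 193 of 51789 genes had no GENCODE M21 symbol, and the table holds 0 genes of the mitochondrial genome.

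Counts were used as deposited, with totals of 2846161 to 20344809 per library, filtered by filterByExpr (17294 genes), scaled by TMM and tested with edgeR 4.0.16 (R 4.3.3) in 1 quasi-likelihood model of the 4 groups, two-sided, with Benjamini-Hochberg adjustment over all genes and a threshold of 0.05. Groups were taken from the labelled strain and treatment. Each host's ACSS2i group was compared with its vehicle group, the 2 effects with each other, and C57BI6 vehicle with NGS vehicle. Errors of log2 fold changes are standard errors, and CPM are on TMM-scaled totals. Copies were genes holding 50% or more of the 50-base words in the last 200 bases of a member's transcript. Rpl39l and Rpl3l are given in counts. No pair of libraries agreed within sampling noise (chi-square per degree of freedom of 5.84 or more). The fit was tested on simulated data.

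Members were named by the smallest p in each direction, up to 10 past the threshold or the first 5, and by role (stalk, paralogues, fusions, p53 regulators, Rps6, Rpsa). Positive members under ACSS2i in C57BI6 were left out of this naming. Between the hosts some members, such as Rpl35 and Rpl6, were added to it. The members and lists were chosen with earlier results of these data known. Alternatives were other scalings (DESeq2 size factors, library totals, TMM without the members), DESeq2 1.42.0, limma voom 3.58.1, no filter, each comparison's groups alone, a replicate block, sums with pseudogenes or copies, and each library left out. The summing with copies by sequence and the joint omission of C57BI6 ACSS2i 4 and vehicle 3 were chosen after seeing the data. Protein sequences were not used here, and some genes are not reported here by name.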

Additional observations from a re-analysis of the deposited data

Results flagged for a closer look

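Among 70 groups of 4 libraries examined over the members named by the rule and reported here, and the family's share of counts, 4 held a library far from the other 3 by Dixon's test, and chance alone marks about 1 group in 20. Rpl27a was at 2976 CPM in C57BI6 vehicle 3, above its group, and Rps23 at 812 CPM in C57BI6 vehicle 4, below it. In C57BI6 ACSS2i, Rpl5 at 906 CPM in library 2 stood above the others, and Rps14 at 2090 CPM in library 4 stood below.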

How the results depend on the processing

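With ACSS2i in C57BI6, DESeq2 and limma voom each called 1 member lower; the other alternatives called 0. In NGS, DESeq2 called 11 lower and 1 higher, beside 760 and 786 of 14039 genes. Limma voom, the NGS libraries alone, and the joint omission of C57BI6 ACSS2i 4 and vehicle 3 called 0 lower. Those fits called 11, 2 and 69 genes lower, in that order. Sums with pseudogenes named -ps called 2 lower, beside 229 of 17205 genes. Leaving out single libraries gave 0 to 11 lower, beside 49 to 978 genes. For the difference of the effects DESeq2 called 1 lower. Between the hosts, library totals alone gave 6 higher, 21 lower and a median of -0.09, beside 2493 and 3608 of 17294 genes. No filter gave 12 and 8, beside 3260 and 2302 of 28428 genes. The replicate block gave 13 and 8, beside 2848 and 1881 of 17294 genes. Omitting single libraries gave 10 to 18 higher and 7 to 13 lower, beside 2693 to 3843 and 1880 to 2872 genes. Without NGS vehicle 1 or 2 it was 7 lower. The main fit called 3245 genes higher and 2421 lower. Summed with copies by sequence, Fau was at 0.11, Rpl12 at 0.17, Rpl35 at 0.14 and Rpl23a at -0.20 (also -0.20 with pseudogenes named -ps), each of the opposite sign. The cause of the other changes was not tested.

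Whether replicate numbers pair the libraries could not be settled, since deviations from means of 3 or 4 libraries carry little information on it. Same-number correlations of deviations ran from -0.14 to 0.266 in C57BI6 and from 0.011 to 0.054 in NGS. Those of different numbers ran from -0.38 to 0.454 and from -0.121 to 0.095. NGS ACSS2i 1 and 2 and C57BI6 ACSS2i 4 correlated best with the vehicle library of their own number, and the other ACSS2i libraries did not. With the number as a block, 0 members were called in C57BI6 and 3 lower in NGS, where 130 of 17294 genes were called lower. Of 1215 values of named members under alternatives, 1093 kept their side of the threshold and direction. The NGS libraries held 2846161 to 4701101 counts and the C57BI6 libraries 17645504 to 20344809, and Rpl39l had 0 to 19 counts in the NGS libraries.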
